A study of Mus musculus with 4 samples.

Results

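The genes described here are 9 interferon-stimulated genes, *Ifit1*, *Ifit2*, *Ifit3*, *Isg15*, *Irf7*, *Irf9*, *Stat2*, *Oasl2* and *Ifi27*, measured by bulk RNA-seq in hair follicle stem cells (HF-SCs) of the mouse. They were chosen by symbol from the 24421 genes of the table deposited for the 2-d experiment, with the condition that the mean normalized count was above 0, and all 9 members met it. The 4 libraries are 2 control and 2 miR-205-induced samples from back skin of P44 mice. Cells were sorted by FACS as live, H2BGFP-high, Sca1-negative, α6-integrin-high and CD34-high cells, which is the usual gate for the bulge, the HF-SC niche. The induced mice carry a *pTRE2-miR-205* transgene, first injected into FVB mice, and *Krt14*-rtTA, so doxycycline chow, given from P42, switches on miR-205 in keratin 14-expressing epithelium and not in HF-SCs alone. Mice of both groups carried a K14-H2BGFP allele and were gender matched, and the labels give the strain as C57BL/6. The labels list the controls as untreated, whereas the protocol and the methods have both groups on doxycycline chow. The labels and methods do not state how many animals went into a library or the genotype of the controls.

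Interferons are secreted proteins that cells release when they sense viral or misplaced nucleic acid. Type I and type III interferons bind their receptors and activate the kinases JAK1 and TYK2, which phosphorylate STAT proteins, STAT2 among them. Together with IRF9, STAT2 is part of a complex named ISGF3, which binds a short element in the promoters of interferon-stimulated genes, and many cells also keep a low level of these transcripts without any added interferon. Stem cells of several tissues are known for such a basal level. In the skin, keratinocytes can make interferon kappa, and infection or wounding can raise the whole program.

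The element that ISGF3 binds was looked for first, since it is the sequence feature by which such genes are known. The motif, GAAA followed after any 2 bases by a second GAAA, was searched on both strands from 250 bases before to 50 bases after each transcription start site, in RefSeq promoters on GRCm38.p6. Of the 9 members, 8 had a promoter entry, and 4 of those 8 held the motif, against 3.91% of the 17224 genes of the table with an entry. The matches of *Ifit1*, *Ifit3* and *Stat2* lie on the opposite strand, so they read TTTC, 2 bases and TTTC on the strand of the gene. *Ifit1* had a pair of matches, starting 104 and 85 bases before the start site, at chr19:34640781-34640798 and chr19:34640800-34640817 on the plus strand. *Ifit3* had another pair, starting 156 and 122 bases before it, at chr19:34583369-34583386 and chr19:34583403-34583420 on the plus strand. *Isg15* had 3 matches that overlap one another, from 78 to 57 bases before the start site, at chr4:156200871-156200900 on the minus strand. *Stat2* had 1 match, 222 bases before it, at chr10:128270272-128270289 on the plus strand. The windows are printed 5′ to 3′ on the strand of the gene, with the matching bases in capitals.
Ifit1, distal: tcagTTTCACTTTCcagt
Ifit1, proximal: tcagTTTCAGTTTCtcac
Ifit3, distal: taagTTTCACTTTCctct
Ifit3, proximal: tctgTTTCAGTTTCtact
Isg15: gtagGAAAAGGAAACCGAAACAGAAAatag
Stat2: ctggTTTCAGTTTCcttt

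The promoters of *Ifit2*, *Irf7*, *Irf9* and *Oasl2* held no match in this window, and *Ifi27* had no entry. *Ifit2* and *Irf9* each had 2 start sites, and neither start held one. Of the 8 members, 3 had 2 or more matches, against 0.290% of all genes with an entry. Other antiviral genes shared the feature, with a match in 17 of 36 antiviral effectors that are no members (47.2%). So did the interferon genes themselves, with a match in 11 of 20 (55.0%). Of 10 receptors, kinases and STATs with an entry, 1 had a match (10.0%), which was *Stat2*. A match is a likeness of letters and not a measured binding site. The number of members with the motif fell to 1, *Isg15*, when only the strand of the gene was searched, where 1.97% of all genes had a match.

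**Figure D1:**
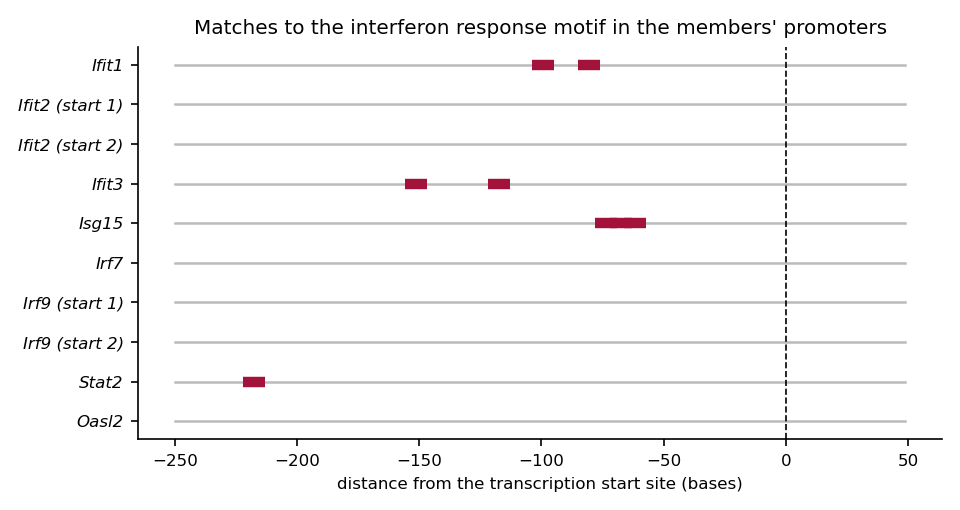
Positions of matches to the motif of 2 GAAA separated by 2 bases on either strand in the 8 members with a promoter entry, by distance from the transcription start site in bases. Grey lines are the windows searched and red blocks the matches; *Ifit1*, *Ifit3*, *Isg15* and *Stat2* hold matches, all of them before the start site.

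miR-205 itself pairs with its targets mainly through bases 2 to 8 from its 5′ end, the seed, shown in capitals. It was printed because it is the molecule induced in 2 of the 4 libraries.
miR-205-5p: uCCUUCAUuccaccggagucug
The heptamer complementary to the seed was found in the 3′UTR of 1 of the 9 members, *Ifit2*, at base 1323 of 1945, in the GENCODE vM1 transcript with the longest coding sequence.
Ifit2 3′UTR: gaaacaccagtggggATGAAGGgattgctg
This share compares with 9.59% of 14397 genes with a mean above 0 and a 3′UTR. When the longest 3′UTR of each gene was used, *Oasl2* also had 2 such heptamers in 1848 bases, and 11.8% of 14409 genes had at least 1.

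The sort was checked against its markers before the levels were read. *Krt14* had a mean normalized count of 90971, *Cd34* of 14575 and *Itga6* of 12910. The 11 HF-SC markers listed, these 3 among them, ranged from 134 to 146090. *Ly6a*, which encodes the Sca1 antigen that was gated out, stood at 136. Transcripts of other cells were present, and the highest of the myeloid and Langerhans markers was *Cd74* at 2744, with all 10 of these markers over 10. The 5 fibroblast markers listed ranged from 39.5 to 5186, the highest being *Col1a1*. Markers of differentiated (suprabasal) epidermis ranged from 116 to 7246, and sebaceous markers from 53.6 to 3085. Of 4 markers of plasmacytoid dendritic cells, *Tcf4* had 1079 and *Bst2* 36.8, whereas *Siglech* and *Ccr9* were at 0.424 and 0.404. Since these are bulk samples, fewer cells of a type and less RNA per cell cannot be told apart, and the share of the members' reads that came from cells other than HF-SCs was not tested.

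The level of each member is given as the authors' mean of normalized counts, that is, read counts divided by the size factor of the library and averaged over the 4 libraries. The members spanned a 98.2-fold range by count, and a 271-fold range per kilobase of transcript. *Stat2*, the STAT that is particular to type I and type III signaling, was highest at 538, followed by *Ifi27*, a small hydrophobic mitochondrial protein, at 510. *Irf9*, the DNA-binding partner in ISGF3, stood at 359, and *Irf7*, which amplifies the transcription of interferon genes, at 121. Then came *Isg15*, a ubiquitin-like modifier, at 23.7 and *Oasl2*, a relative of the oligoadenylate synthetases, at 20.9. The proteins of the *Ifit* family bind foreign RNA and its 5′ end and hold back its translation. Their transcripts were lowest, at 7.36 for *Ifit2*, 7.04 for *Ifit1* and 5.47 for *Ifit3*.

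**Figure D2:**
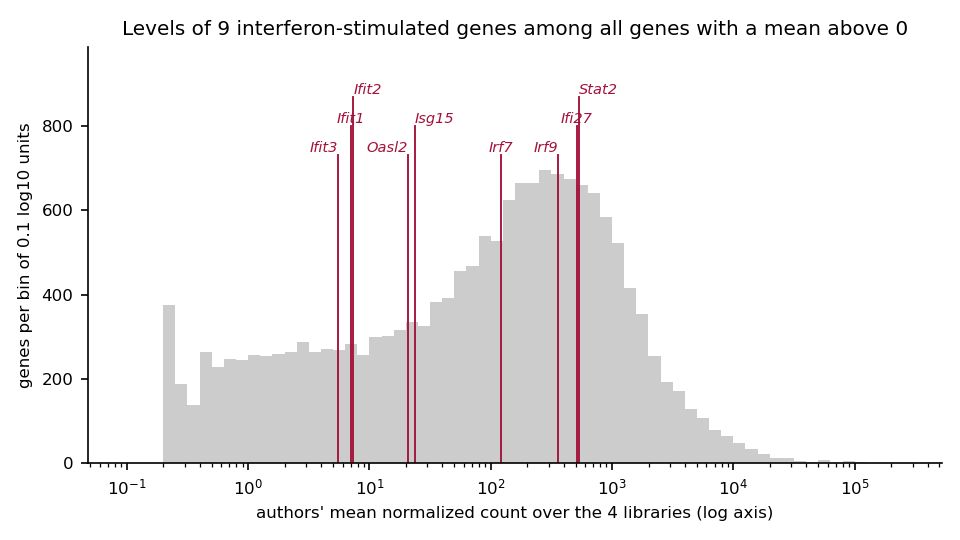
The authors' mean normalized count of the 9 members (red lines) among genes with a mean above 0 (grey histogram, genes per bin of 0.1 log10 units). The horizontal axis is logarithmic. The 3 *Ifit* genes lie under 10, whereas *Irf9*, *Ifi27* and *Stat2* lie over 300, to the right of the tallest bin of the histogram.

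The members thus fell on both sides of the middle of the 17044 genes with a mean above 0, whose median was 117. Of the 9 members, 4 lay above it, and their median percentile was 32.4. *Stat2* was at percentile 75.7 and *Ifi27* at 74.9, whereas *Ifit3* was at 21.4. Levels of different genes can be compared only per length. Per kilobase of the longest annotated transcript, *Ifi27* led the order with a mean normalized count of 522 per kilobase, which was percentile 91.2 of genes with a length. *Stat2* and *Irf9* came next with 122 and 121 per kilobase and could not be ordered, since their libraries ranged from 111 to 135 and from 104 to 132. *Irf7* had 54.2 per kilobase, *Isg15* 31.4 and *Oasl2* 6.68. The 3 *Ifit* genes lay between 1.93 for *Ifit2* and 3.14 for *Ifit3*, which put *Ifit2*, the highest of the 3 by count, last per kilobase of transcript. Per kilobase of coding sequence *Ifit2* was first of the 3, at 5.21 beside 5.06 for *Ifit1* and 4.52 for *Ifit3*. The ranges of these 3 genes over the libraries overlapped, so they could not be ordered either. The other neighbours in the order, *Ifi27* above *Stat2*, *Irf9* above *Irf7*, *Irf7* above *Isg15*, *Isg15* above *Oasl2* and *Oasl2* above *Ifit3*, had ranges over the libraries that did not overlap. The length of *Ifi27* was taken from a gene whose name in GENCODE vM1, *Ifi27l1*, is an older symbol of it.

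The means kept enough digits to give back the whole reads of each library. A mean of 4 libraries is a sum of whole reads, each worth a fixed amount in its library, and for all 13233 genes with a mean above 0 and up to 600 exactly 1 set of 4 read counts gave the deposited value. These libraries are named A, B, C and D in the order of their size factors, 1.24, 1.18, 0.966 and 0.716. The mean alone does not tie them to a label, and the columns of the authors' own comparison, which could, were not used. The groups of A to D are therefore not given, no mean ± SD was formed and induced and control cells were not compared. Counting intervals at 95% cover the error of counting reads only.

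*Ifit1* had 4, 13, 4 and 7 whole reads in A, B, C and D, or 3.23, 11.0, 4.14 and 9.77 normalized counts. *Ifit2* had 6, 11, 8 and 5 reads, or 4.85, 9.33, 8.28 and 6.98 normalized counts. *Ifit3* had 2, 10, 6 and 4 reads, or 1.62, 8.48, 6.21 and 5.58 normalized counts. Each of the 3 genes was lowest in A and highest in B, although with so few reads the counting intervals of A and B overlapped for every one of them. Their summed normalized counts were 9.70, 28.8, 18.6 and 22.3. Beside this sum, 7 myeloid and Langerhans markers with recovered reads summed to 966, 1678, 1518 and 843, also highest in B but lowest in D. Their part in the order of the *Ifit* genes was not tested.

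*Isg15* had 38, 29, 14 and 18 reads in A, B, C and D, or 30.7, 24.6, 14.5 and 25.1 normalized counts. It was highest in A, where the *Ifit* genes were lowest, and the counting intervals of A and C, its lowest library, overlapped. *Oasl2* had 21, 21, 20 and 20 reads, or 17.0, 17.8, 20.7 and 27.9 normalized counts, so the near-equal reads of the 4 libraries became a 1.64-fold range once depth was divided out. The intervals of its highest and lowest library overlapped too.

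*Irf7* was highest in library A, as *Isg15* was, with 207, 127, 96 and 79 reads, or 167, 108, 99.3 and 110 normalized counts. The other 3 libraries lay close together, and A was 1.68-fold above the lowest, C. *Irf9* had 484, 424, 364 and 220 reads, or 391, 360, 377 and 307 normalized counts, and was lowest in D, the shallowest library. *Stat2* had 642, 578, 529 and 425 reads, or 519, 490, 547 and 593 normalized counts. *Stat2* was highest in D, where *Irf9* was lowest, and lowest in B. *Ifi27* had 588, 554, 525 and 395 reads, or 475, 470, 543 and 551 normalized counts, the narrowest range of the 9 members at 1.17-fold. Of the 9 members, 3 were highest in A, 3 in B, 0 in C and 3 in D. Among other antiviral effectors with a mean over 5 and recovered reads, 12 of 30 were highest in A. This compares with 1942 of the 9695 genes with a mean over 5 and up to 600. Of the 30 effectors, 3 were highest in B, 7 in C and 8 in D, against 2863, 2836 and 2054 of the 9695 genes. In B, where the *Ifit* genes were highest, 16 of the 30 were lowest, against 1872 of the 9695. In A, where the *Ifit* genes were lowest, 5 of the 30 were lowest, against 2992 of the 9695. Library D also had the lowest *Ly6a*, at 60.03 against 146, 159 and 179 in A, B and C, and the lowest sum of 4 melanocyte markers, at 335 against 830, 668 and 1949. The part of these cells in the order of the members was not tested.

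**Figure D3:**
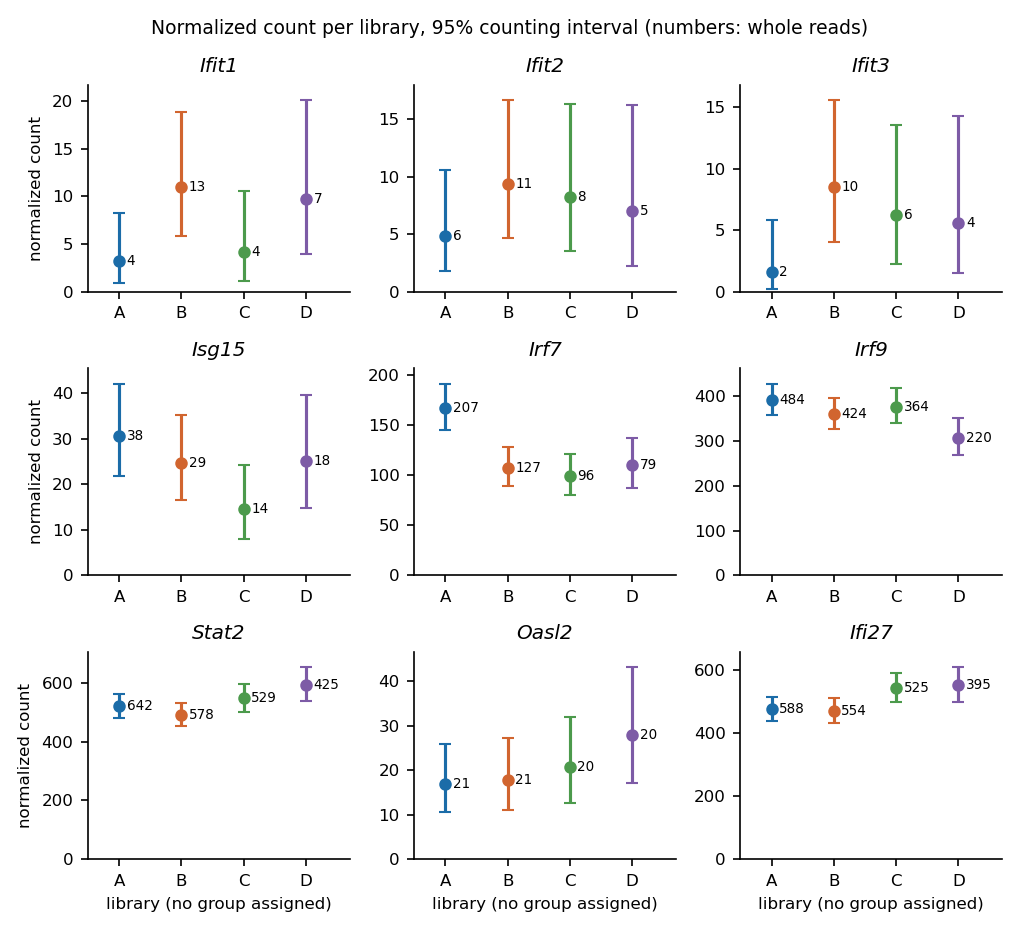
Normalized count of each member in libraries A to D, to which no group was assigned, with whole reads printed beside the points and bars for the 95% counting interval. Each vertical axis starts at 0. The 3 *Ifit* genes rest on 2 to 13 reads a library, whereas *Irf9*, *Stat2* and *Ifi27* rest on 220 or more.

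The intervals of the highest and the lowest library lay apart for 3 of 9 members, *Irf7*, *Irf9* and *Stat2*, against 45.0% of the 9695 genes with a mean over 5 and up to 600. The share among the members was thus not above that of other genes. Without library A, *Stat2* was the only such member, and without library D, *Irf7* was. The count was 2 without library B and 3 without library C. The ratio of the highest to the lowest library depended on the level in members and other genes alike. It was 5.25 for *Ifit3* and 3.41 for *Ifit1*, where genes with means less than 25% higher, or lower by the same factor, and reads in every library had medians of 3.65 and 3.34. It was 1.92 for *Ifit2*, under the median of 3.20 for its like genes. At the other end it was 1.27 for *Irf9* and 1.21 for *Stat2*, beside medians of 1.25 and 1.24. *Irf7* had 1.68 beside a median of 1.40.

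**Figure D4:**
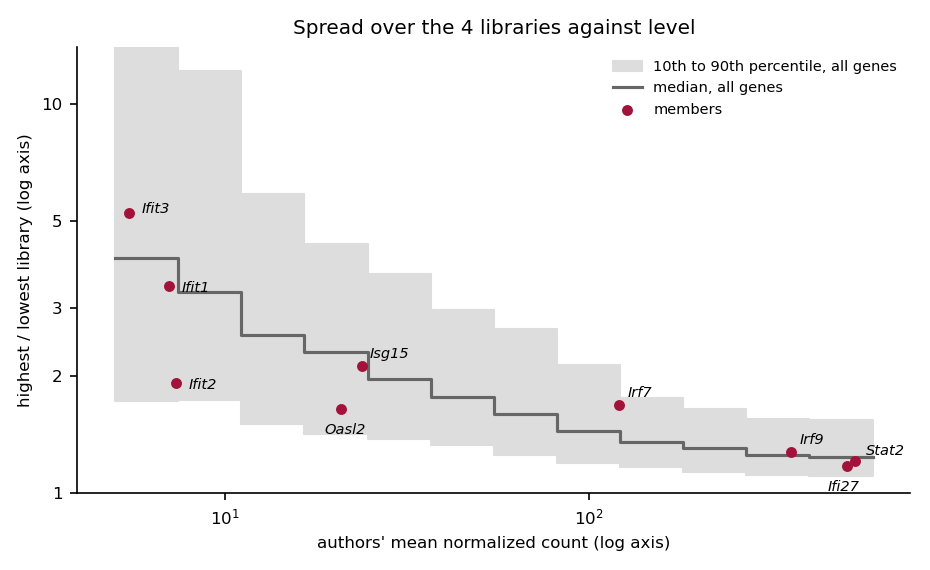
Ratio of the highest to the lowest library against the authors' mean normalized count, both on logarithmic axes. Red points are members; the grey steps give the median and the 10th to 90th percentile of all genes in 12 bins of level, with genes lacking reads in a library counted as infinite. The ratio falls from 5.25 for *Ifit3* to 1.17 for *Ifi27*, and the members stay within the grey band.

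The genes that would feed the members were then described by their roles, from lists written with earlier results of these data known. The members *Stat2*, *Irf7*, *Irf9* and *Isg15* stand in the lists of their roles and are counted there, although the rule chose them to lie above 0. Of 21 interferon genes, 17 were at 0 in all libraries, beside 7377 of all 24421 genes. A count of 0 allows up to 3 reads over the 4 libraries, or a mean of 0.732. Only *Ifnk*, interferon kappa, had a mean over 10, at 13.4, with 14, 27, 16 and 2 reads. Its normalized counts were 11.3, 22.9, 16.6 and 2.79, highest in B and lowest in D. *Ifnl3* and *Ifnl2*, which encode type III interferons, had 2 reads each in 1 library. Interferons can act at low transcript levels and come from other cells of the skin, which were not measured here.

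A mean over 10 was reached by 52.0% of all 24421 genes and by 12691 of the 17044 above 0. All 12 receptors, kinases and STATs had a mean over 10, led by *Stat3* at 11805, *Jak1* at 5119 and *Jak2* at 1472. All 9 interferon regulatory factors were also over 10. *Irf1* had 2354 and *Irf3*, which is activated downstream of nucleic acid sensors, 572, so the members *Irf9* and *Irf7* were not the most abundant of their family. Of 16 nucleic acid sensors and adaptors, 11 were over 10 (68.8%), with *Myd88* at 863, *Tbk1* at 605 and *Mavs* at 244 as the highest.

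Of 46 antiviral effectors in the table that are no members, 31 had a mean over 10 (67.4%), beside 12691 of all 24421 genes (52.0%). Of the members, all above 0 by the rule that chose them, 6 of 9 did, beside 12691 of the 17044 genes above 0. Of those 46 effectors, 43 were above 0. Their median was 36.6, and the highest were *B2m*, the light chain of MHC class I, at 7118, *Zc3hav1* at 1928 and *Ifitm2* at 1379. *Ifi44l*, *Ifit1bl1* and *Ifi27l2b* were at 0 in all libraries. The 5 genes of ISG15 conjugation were all detected at a mean over 10, and *Usp18*, the protease that removes ISG15 and also holds back receptor signaling, was highest at 97.5. Its normalized counts were 100.3, 89.9, 95.2 and 104.7 in A, B, C and D, whose intervals overlapped. Per kilobase of transcript *Usp18* had 55.1, beside 31.4 for *Isg15*. By mean normalized count, not divided by length, *Ube2l6*, the conjugating enzyme, had 70.8 and *Herc6*, the ligase, 31.4. All 6 brakes on the pathway were over 10, the highest being *Socs3* at 6651, *Ptpn2* at 1129 and *Ptpn6* at 230.2.

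**Figure D5:**
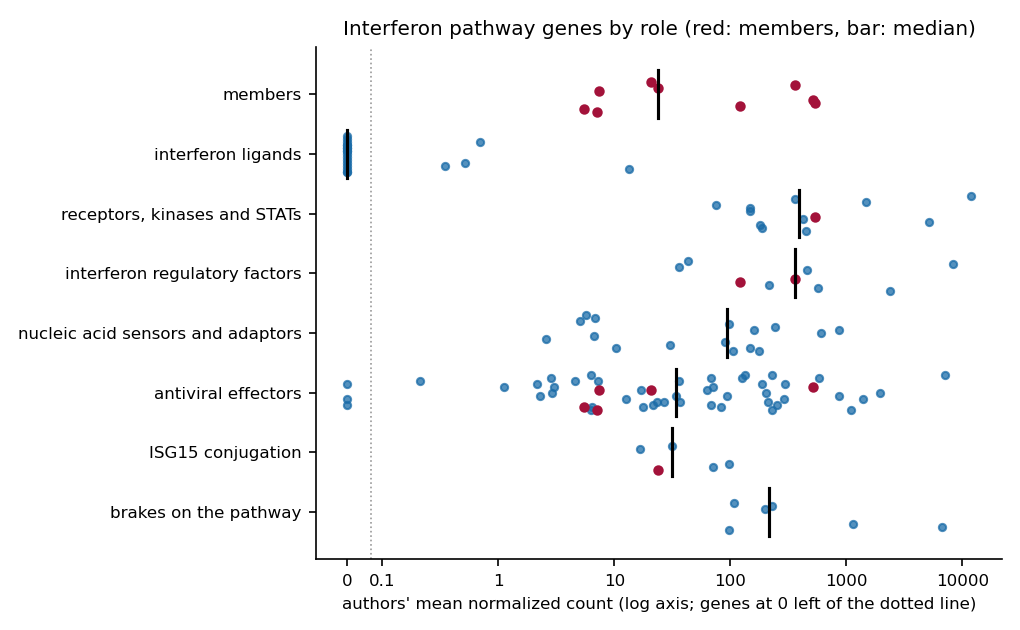
The authors' mean normalized count of interferon pathway genes grouped by role, on a logarithmic axis, with genes at 0 left of the dotted line. Points are genes, red points the members and black bars the medians. Of 21 ligands 17 lie at 0, whereas all 12 receptors, kinases and STATs lie over 10.

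Places of the members are those of RefSeq on GRCm38.p6. The 3 *Ifit* genes are neighbours on chromosome 19, *Ifit2* at chr19:34550550-34576534, *Ifit3* at chr19:34583119-34588982 and *Ifit1* at chr19:34640889-34650009. *Isg15* lies at chr4:156199424-156200818, *Oasl2* at chr5:114896926-114912245 and *Irf7* at chr7:141263183-141266499. *Stat2* lies at chr10:128270498-128292853, *Ifi27* at chr12:103434189-103440245 and *Irf9* at chr14:55603985-55610030.

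Reads of some members could not be told fully from those of near-identical or overlapping genes. *Ifit3b*, the near copy of *Ifit3*, had a mean of 1.13, and 51.5% of the 50-base windows of *Ifit3* and 18.5% of its 150-base windows also occur in *Ifit3b*. *Ifit1* shared 7.13% of its 50-base windows with *Ifit1bl2*, whose mean was 2.70, and with *Ifit1bl1*. At 150 bases, the length of the reads, it shared 1.24%, with *Ifit1bl2* alone. *Ifi27* overlaps *Ifi27l2a*, at a mean of 21.6, and *Oasl1*, the relative of *Oasl2*, had a mean of 6.28. *Stat2* overlaps *Apof*, at a mean of 0.461, *Ifit1* overlaps *Ifit1bl1*, at 0, and *Isg15* overlaps *Gm46878*, which had no value here. *Irf9* shared 2.54% of its 50-base windows with *Rnf31* and 0 of its 150-base windows with any other protein-coding gene, the only kind searched. *Ifit2* shared none at either length. The values of *Ifit3* and *Ifit1* are uncertain to that extent, and that of *Irf9* at the shorter length only. The effect of overlapping genes on the reads of the members was not tested.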

How the data were processed

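FACS-purified HF-SCs of 2 control and 2 miR-205-induced samples were profiled by 150-nt paired-end RNA-seq with a strand-specific kit. The authors used Hisat2 2.1.0 for alignment, SAMtools 1.3.1 for conversion and HTSeq for counting, and ran DESeq2 at default settings. The labels name mm10, and the annotation is not given in the sources used here. The deposited mean is a signal, the authors' average of read counts divided by size factors over 4 libraries. The other columns hold the authors' own comparison (log2 fold change, its error, statistic, p-value and adjusted p-value) and were not used. The table had 0 columns of per-sample values. The libraries recovered below carry no label without those columns, so induced and control cells were not tested against each other.

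Whole reads were recovered from the 15 significant digits of the mean, with the worth of 1 read in each library taken from genes with 1 read and refined by least squares. All sets of 4 whole numbers within 1.5 times the rounding error of the last digit were sought, for means up to 600. The search was tested on simulated data. Total depth is unknown, since genes above 600 were not recovered; the deepest library had 1.73 times the size factor of the shallowest. Intervals are exact Poisson intervals at 95%. Detection was set at a mean over 10. Lengths came from GENCODE vM1 protein-coding transcripts (91.0% of genes with a mean above 0), promoters and gene places from RefSeq on GRCm38.p6. Alternatives were other gene sets, lengths, detection limits and motifs, a wider tolerance, unrefined weights and leaving out each library.

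The members and lists were chosen with earlier results of these data known. The genes named are the members, the 3 highest of each list, genes at 0 where a list has 3 or fewer, near copies of members, and for markers the genes of the sort and the extremes. *Ifit1bl2*, *Uba7*, the genes that overlap *Stat2* and *Isg15*, and the myeloid and Langerhans markers given by library were named after values were seen. Withheld items that this rule would name are left out. The tolerance, the choice of 3′UTR, the counting intervals, the ratio beside genes of like mean, the shared windows, the seed matches and the sum over *Ifit* genes were added or changed after the data were examined. Computations ran in Python 3.11.15 with numba 0.67.0, scipy 1.17.1, pandas 2.3.3, numpy 2.4.6 and matplotlib 3.10.9.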

Additional observations from a re-analysis of the deposited data

How the results depend on the processing

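Of 91 alternative values over 31 results, 82 stayed and 9 moved, and 14 of the 91 were added after the data were examined. To stay meant lying within 1 SD over the 4 libraries or 1.5 times the main count, or giving the same reads. That SD spans both groups, since the libraries carry no label. Leaving out 1 of 4 libraries cannot shift a mean by that much, so the single-gene means could not have moved. The median percentile of the members, 32.4, became 0.0 among genes with a mean over 50 (members at or under 50 counted as 0), 41.2 per kilobase of transcript and 37.7 per kilobase of coding sequence. The members whose highest and lowest libraries lay apart numbered from 1 to 3 when a library was left out. The members with the motif numbered 1 on the strand of the gene alone and 4 with the shorter AA, 2 bases and GAAA on either strand, which 24.8% of all genes hold. At a mean over 50, 0 ligands and 2 ISG15 conjugation genes were detected. With the longest 3′UTR, 2 members had a seed match.

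The first tolerance tried for the read search ignored how rounding steps with size and gave exactly 1 set for 12893 of 13233 genes (97.4%), with no set for 340. It was replaced for that reason, and the reads of the 9 members were equal under both, under a 10 times wider tolerance and with unrefined weights, which had been named as the main choice at first. No paired analysis was possible because the recovered libraries carry no replicate number. Reads of the *Ifit* genes, 22 to 30 in all libraries together, limit what can be seen of them.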
